A study of Mus musculus with 2 samples.

Results

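Chemokines are small secreted proteins that steer leukocytes through tissue, and their receptors are G protein-coupled receptors that differ from one type of leukocyte to the next. Inflammatory ligands are made by activated leukocytes and stressed epithelium, whereas homeostatic ligands place lymphocytes in lymphoid and barrier tissue. In lupus nephritis, ligands made inside the kidney are known to draw T cells, monocytes and neutrophils into the interstitium and glomeruli. The 39 genes described here, 23 ligands and 16 receptors, were taken by symbol from the 31053 genes of the expression matrices.

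For these libraries the study profiled kidney cells of MRL-lpr mice, a lupus-prone strain whose Fas gene is disrupted. Both groups thus carried the same mutation, and no library came from a control strain. MRL-MpJ mice served as background controls in other experiments of the study. Kidneys of several mice were pooled for each age, leukocytes were enriched with a pan-ILC negative selection, live cells were sorted, and 1 library was made from old mice and 1 from young mice. MRL-lpr mice develop nephritis as they age, so that age and disease stage cannot be told apart. With 1 library per age there is no replicate and no test: each difference below compares 2 libraries, and its interval covers counting error only. The enrichment also set which cells were recovered, so class sizes are not tissue proportions.

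After the filters the young library held 11429 barcodes with a median of 7881 unique molecular identifiers (UMIs), and the old library held 10232 with a median of 6933. The 2 libraries shared 26 of these barcodes. Barcodes were placed in classes by marker genes, none of them a chemokine or chemokine receptor gene, and the classes carry the suffix "-like". The largest classes were proximal tubule (PT)-like cells, 5822 young and 3277 old, and ILC2-like cells, 1472 young and 336 old. CD4 T-like cells numbered 102 and 1047, CD8 T-like cells 159 and 1121, and T-like cells with neither coreceptor UMI 152 and 1477. The 10 genes that led the fold of the last class over the others included the NK marker Eomes. None of the 8 T markers was among them, nor among those of the CD4 T-like and CD8 T-like classes. The 8 T markers summed to 5948 and 7397 CPM in young and old cells of the last class. CD4 T-like cells had 6587 and 8058 CPM, and CD8 T-like cells 7335 and 8071 CPM. NK or ILC1-like cells numbered 216 and 254, monocyte-like cells 109 and 156, neutrophil-like cells 135 and 137, and macrophage-like cells 71 and 43. Rare classes were basophil or mast-like cells, 17 and 12, and endothelial-like cells, 274 and 17. Dendritic-like cells were 37 and 5, and plasma-like cells 5, all doublet calls, and 55. The methods name female mice, but cells with UMIs of a Y-linked gene and none of Xist made up 58.5% of young and 52.2% of old PT-like cells, so values within Y-linked and within Xist-bearing cells are given where they differ from the pooled ones. The share of Xist-bearing cells differed between the libraries, for example 21.1% and 53.9% in coreceptor-negative T-like cells.

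Levels are given as CPM: the UMIs that all cells of a class hold of 1 gene, scaled to a class total of 1e+06 UMIs, beside a 95% interval from the exact Poisson distribution. Since each transcript is counted once at its 3′ end, the levels need no correction for gene length. Shares of cells were taken after each cell was thinned to 1000 UMIs, with an exact Clopper-Pearson 95% interval. RNA set free in the suspension puts UMIs of one cell type into the droplets of others, so each share was read beside that of a class that should lack the gene: PT-like cells where leukocytes make the gene, B-like cells where epithelium does.

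Many of the 39 genes lie together in the mouse genome (mm10, GRCm38), with 12 on chromosome 11, 10 on chromosome 9 and 6 on chromosome 5. Cxcl1 (ENSMUSG00000029380, chr5:90891241-90893115) and Cxcl2 (ENSMUSG00000058427, chr5:90903871-90905938) are neighbours on the plus strand and encode neutrophil attractants. Cxcl9 (ENSMUSG00000029417, chr5:92321347-92328079) and Cxcl10 (ENSMUSG00000034855, chr5:92346638-92348889) are neighbours on the minus strand and encode interferon-induced ligands of Cxcr3. Cxcl1, Cxcl2 and Cxcl10 were higher in old than in young PT-like cells, and Cxcl9 is their macrophage-led neighbour. The 250 bases before the start site of each are shown as RefSeq gives them for GRCm38.p6, 5′ to 3′ on the strand of the gene, from chr5:90890995-90891244, chr5:90903649-90903898, chr5:92328080-92328329 and chr5:92348890-92349139. The RefSeq start sites of Cxcl1 and Cxcl2 lie inside the gene spans given above, so their windows run past those gene starts. Distances to a start site are counted from the RefSeq one. Capitals mark matches, on either strand, to an NF-kB-like motif (GGGNNTTTC), an interferon response element-like motif (GAAANNGAA) or a GAS-like motif (TTCNNNGAA), of which the last pair can share the letters GAA.
Cxcl1: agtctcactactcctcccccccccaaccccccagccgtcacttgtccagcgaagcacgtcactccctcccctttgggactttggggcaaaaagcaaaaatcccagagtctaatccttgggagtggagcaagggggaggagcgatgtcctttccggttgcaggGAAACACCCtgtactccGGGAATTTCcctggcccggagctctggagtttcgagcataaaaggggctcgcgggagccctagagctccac
Cxcl2: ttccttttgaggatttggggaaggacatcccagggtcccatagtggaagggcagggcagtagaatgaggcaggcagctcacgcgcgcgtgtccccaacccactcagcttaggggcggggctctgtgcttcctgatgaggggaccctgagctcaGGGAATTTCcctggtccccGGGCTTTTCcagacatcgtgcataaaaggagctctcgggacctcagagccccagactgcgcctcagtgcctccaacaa
Cxcl9: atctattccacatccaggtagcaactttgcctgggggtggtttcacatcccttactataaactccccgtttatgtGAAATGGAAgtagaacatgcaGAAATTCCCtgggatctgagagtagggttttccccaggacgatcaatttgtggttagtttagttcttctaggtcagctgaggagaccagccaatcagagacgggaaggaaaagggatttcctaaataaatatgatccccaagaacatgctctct
Cxcl10: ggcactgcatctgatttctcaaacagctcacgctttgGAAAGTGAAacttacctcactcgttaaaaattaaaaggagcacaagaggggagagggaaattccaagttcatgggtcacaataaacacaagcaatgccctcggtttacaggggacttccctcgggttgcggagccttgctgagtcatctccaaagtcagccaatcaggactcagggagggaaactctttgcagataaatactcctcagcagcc

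The Cxcl1 and Cxcl2 promoters each held 2 NF-kB-like matches, the nearest ending 63 and 70 bases before the start site, and the Cxcl9 promoter held 1, ending 146 bases before it. The Cxcl9 and Cxcl10 promoters each held 1 interferon response element-like match, ending 167 and 205 bases before the start. No GAS-like letters stood in these 4 windows. Of 32851 mouse promoters of the same length, 3.72% held the NF-kB-like letters, 7.13% the interferon response element-like letters and 7.02% the GAS-like letters. Promoters were found for 30 of the 39 genes, of which 9 held the NF-kB-like letters, 5 (Ccl3, Ccr2, Cxcl9, Cxcl10 and Cxcl14) the interferon response element-like and 3 (Ccl17, Ccr6 and Cxcl14) the GAS-like letters. A match describes letters only, and no factor binding was measured. Only these exact letters were searched, so a window without a match, such as that of Cxcl10 for the NF-kB-like letters, can hold other forms of a site.

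The first question was which class made each ligand. Myeloid classes had the highest level of most ligands: of the 23, a myeloid class led for 13 in the young and 12 in the old library, a T, NK or ILC2-like class for 2 and 3, and an epithelial or endothelial class for 3 and 5. No class held 10 UMIs of the other 5 and 3. The same class led in both libraries for 14 of the 18 ligands that had a leading class in both. Ccl2, Cxcl1, Cxcl2 and Cxcl10 were led by different classes in the young and the old library.

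Ccl5 (ENSMUSG00000035042, chr11:83525778-83530518), an attractant of T cells and monocytes, was highest in NK or ILC1-like cells, with 9577 CPM (95% interval 9396 to 9760) at the young age and 21989.5 CPM (21771 to 22210.0) at the old age. CD8 T-like cells followed with 7816 and 13016 CPM. After thinning, 68.7% of young and 92.0% of old NK or ILC1-like cells had a Ccl5 UMI, against 0.276% and 1.56% of PT-like cells. Of all old Ccl5 UMIs 50.1% lay in CD8 T-like, 18.3% in NK or ILC1-like and 11.6% in CD4 T-like cells. All kept barcodes together held 24964 Ccl5 UMIs in the young and 210911 in the old library. Xcl1, the attractant of Xcr1-bearing dendritic cells, also led in NK or ILC1-like cells, at 1869 and 1237 CPM. Gamma-delta T-like cells were next with 781 and 863 CPM of Xcl1. Both ligands were seen in the same cells: of the 140 young NK or ILC1-like cells with an Xcl1 UMI, 92 also held Ccl5, and of the 122 old ones, 113 did.

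Ccl3 and Ccl4, inflammatory ligands of monocytes and T cells, and Ccl6 and Ccl9, myeloid CC ligands, were highest in the few basophil or mast-like cells. Among 17 young and 12 old cells of this class, Ccl4 stood at 31852.5 and 11414 CPM, and Ccl3 at 25904 and 8616 CPM. Ccl6 was at 8510 and 3835 CPM, and Ccl9 at 3749 and 2270 CPM. Of the 17 young cells 16 held Ccl3, 17 held Ccl4, 16 held Ccl6 and 15 held Ccl9, and of the 12 old cells 11, 12, 7 and 9 did. After thinning, 75.0% of the old cells held Ccl3, 83.3% Ccl4, 58.3% Ccl6 and 66.7% Ccl9. In the young library macrophage-like cells came second for Ccl3 and Ccl4, at 4647 and 9347 CPM. In the old library that place was taken by NK or ILC1-like cells, at 1967 and 4395 CPM. Plasmacytoid dendritic-like cells also made Ccl4, at 3097 CPM (2963 to 3236) and 3435 CPM (3283 to 3592), a level that barely differed between the libraries.

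Macrophage-like cells led for Ccl7, Ccl8, Ccl12, Cxcl9 and Cxcl16 in both libraries and for Cxcl14 in the old one. Cxcl9 levels were 896 CPM (804 to 995) young and 1236 CPM (1165 to 1310) old, held by 6 of 71 and 17 of 43 cells. Cxcl16, a transmembrane ligand of Cxcr6, was the most widespread of them, in 62 of 71 young and 37 of 43 old macrophage-like cells, at 684 and 559 CPM. Ccl12, a Ccr2 ligand, was at 495 and 94.0 CPM, whereas Ccl7, another Ccr2 ligand, had only 24 and 34 UMIs there, 26 of the old ones in 1 cell, without which no class led. Cxcl14 was at 20.7 CPM, from 8 UMIs, and 128 CPM. Ccl8 was at 31.1 and 1078 CPM, but 475 of its 987 old UMIs lay in 1 cell and its 12 young UMIs in 2 cells. Ccl8 and Cxcl9 were also among the 10 genes that set the macrophage-like class most apart from the others. Ccl24, an eosinophil attractant, was led by monocyte-like cells in the old library, at 32.0 CPM, with 79 UMIs in 11 of 156 cells.

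Cxcl2 was shared by the myeloid classes. In the young library its level did not separate macrophage-like cells, at 3845 CPM (3652 to 4045), from neutrophil-like cells, at 3829 CPM (3641 to 4023). In the old library neutrophil-like cells led alone with 6377 CPM (6194 to 6563), and 122 of 137 of them held Cxcl2. Ccl2 (ENSMUSG00000035385, chr11:82035571-82037453), the main monocyte attractant, was led by macrophage-like cells in the young library, at 456 CPM (391 to 528), with monocyte-like cells at 323 CPM (290 to 360). In the old library monocyte-like cells held Ccl2 in 77 of 156 cells at 247 CPM (228 to 268). The higher old value of endothelial-like cells, 284 CPM, came from 35 UMIs in 1 of 17 cells, and without that cell monocyte-like cells led.

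Epithelial classes led for Ccl28, Cxcl12 and Cx3cl1 in both libraries and for Cxcl10 in the old one. Ccl28, a mucosal ligand of Ccr10, was led by PT-like cells at 4.45 and 28.7 CPM. Young regulatory T-like cells had 5.17 CPM (0.131 to 28.8) of Ccl28, from fewer than the 10 UMIs a leading class needed. Cxcl12, the homeostatic ligand of Cxcr4, and Cx3cl1, the membrane-bound ligand of Cx3cr1, were led by cells of the loop, distal tubule or collecting duct at 31.7 and 28.1 CPM and at 47.5 and 71.2 CPM. The young Cxcl12 value came from 14 UMIs, and PT-like cells led instead without the top cell or with at most 10% mitochondrial UMIs. Endothelial-like cells followed for Cx3cl1 with 24.4 CPM (17.1 to 33.8) young and 24.3 CPM (5.02 to 71.2) old, intervals that overlapped those of the leading class. Cxcl1 was led by macrophage-like cells in the young library, at 176 CPM, and by ILC2-like cells in the old one, at 93.4 CPM (80.1 to 108), where macrophage-like cells had 83.0 CPM (65.4 to 104). ILC2-like cells thus had nearly the same Cxcl1 level at both ages, 98.7 and 93.4 CPM.

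**Figure D1:**
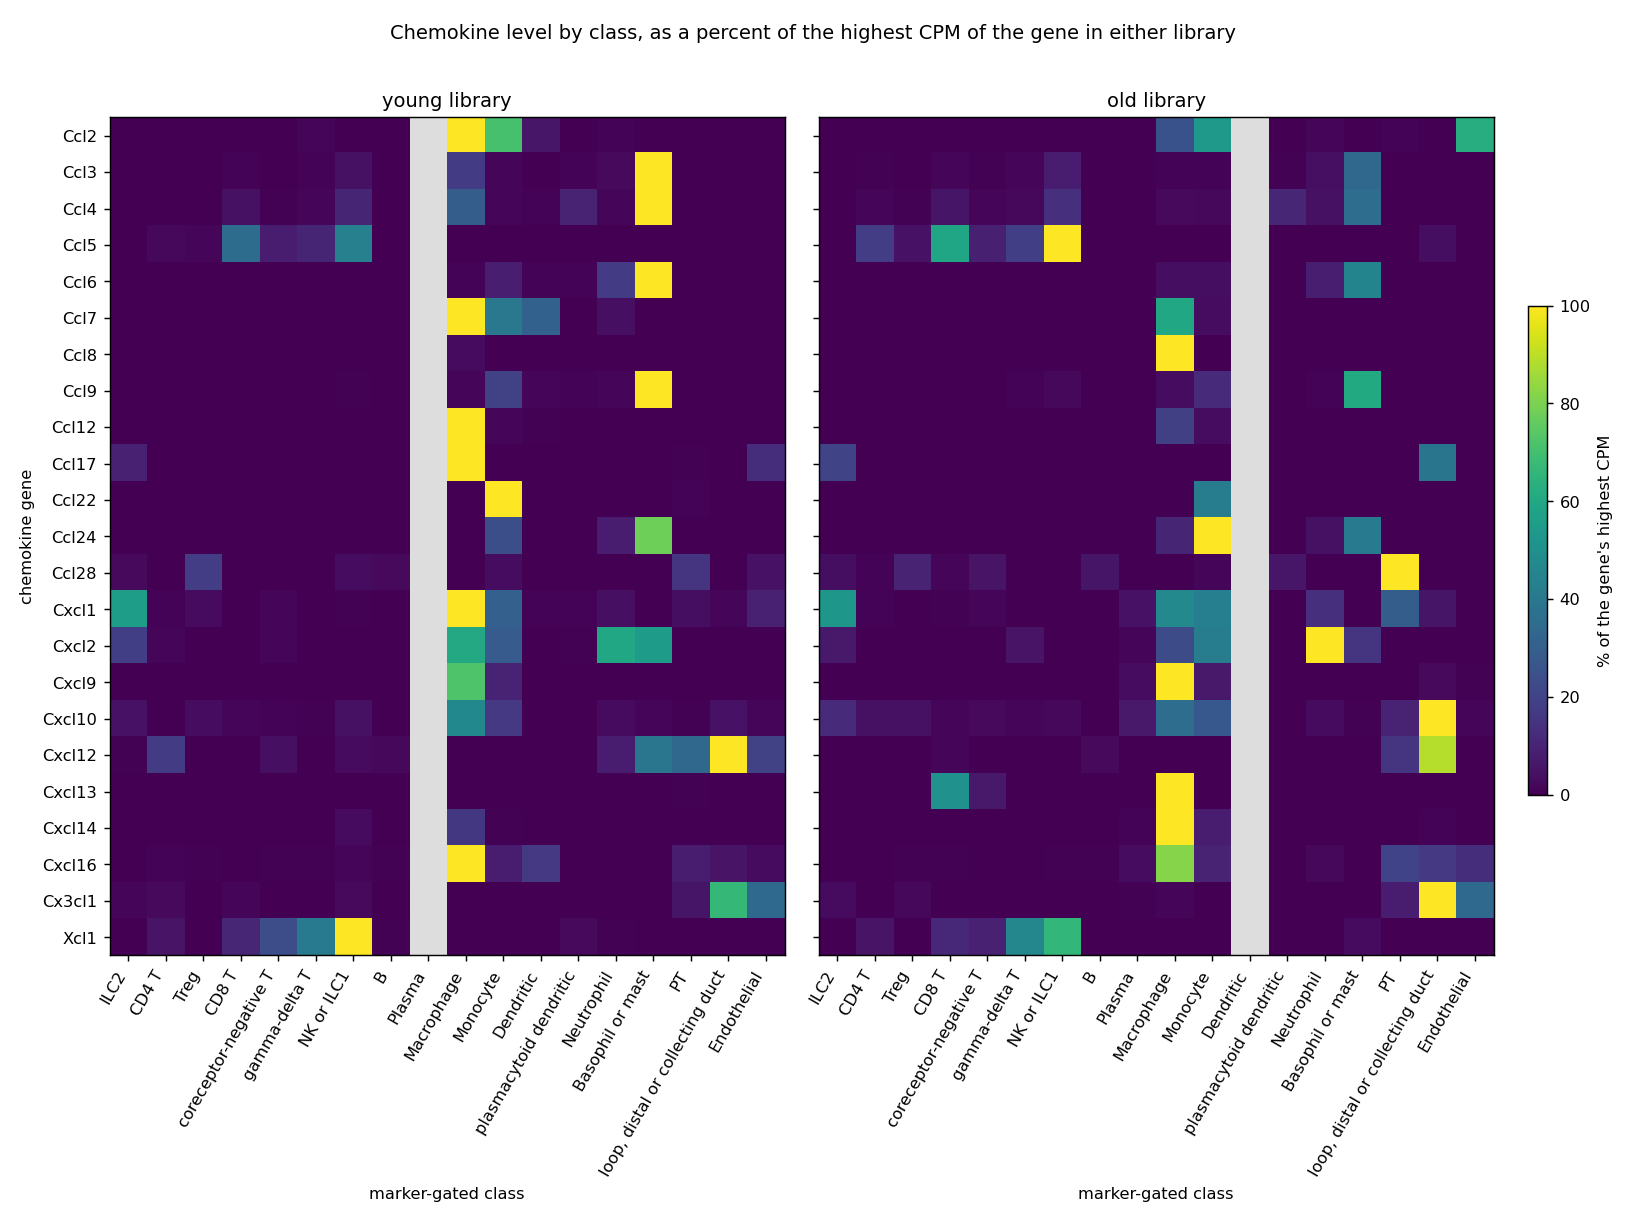
Ligand levels by class in the young (left) and old (right) library; each row is 1 gene, each column 1 class, and the colour is the CPM as a percentage of the highest CPM of that gene in either library, with grey for classes of fewer than 10 cells. Brighter colours are higher levels. Ccl5 and Xcl1 are brightest in NK or ILC1-like cells, and Ccl3, Ccl4, Ccl6 and Ccl9 in basophil or mast-like cells. Ccl2, Ccl7, Ccl8, Ccl12, Cxcl1, Cxcl9, Cxcl14 and Cxcl16 are brightest in macrophage-like cells. The rows of Ccl17, Ccl22 and Cxcl13 rest on very few UMIs.

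The thinned share of the leading class lay above the interval of the class that should lack the gene in 50 of 55 cases, counting each gene and library with at least 50 UMIs in the leading class. The 5 exceptions were Ccl28 in both libraries, Cxcl10 in young macrophage-like cells, Cxcl12 in old loop, distal tubule or collecting duct cells and Ccr10 in old plasma-like cells. For Ccl28 the thinned shares in old PT-like cells and old B-like cells were 2.48% (1.97% to 3.07%) and 0.629% (0.0159% to 3.45%), a difference that was not detectable at this depth. Before thinning, 166 of 5822 young and 513 of 3277 old PT-like cells held a Ccl28 UMI.

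No class led for 3 ligands, Ccl17, Ccl22 and Cxcl13, in either library. All barcodes together held 3 young and 16 old UMIs of Ccl22, and 1 and 15 of Cxcl13, the B-cell follicle ligand. Ccl17, a Ccr4 ligand like Ccl22, had 265 young UMIs, of which 230 lay in 1 barcode outside every class. In the old library, 8 of the 16 Ccl22 UMIs were in 1 of the 5 dendritic-like cells.

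The second question was which class held each receptor. Of the 16 receptors, myeloid classes led for 6 in both libraries, T, NK or ILC2-like classes for 6 in the young and 5 in the old, and B, plasma or plasmacytoid dendritic-like classes for 3 and 4. The same class led in both libraries for 8 of the 14 receptors with a leading class in both. The leading class differed for Ccr4, Ccr6, Ccr8, Ccr10, Cxcr5 and Cxcr6, but only for Cxcr6 did the leading interval stand clear of the next class in both libraries. Ccr4 was highest in regulatory T-like cells of both, at 31.0 and 12.9 CPM, which fell short of the 10 UMIs a leading class needed. The same was true of Ccr10 in the young library, at 31.0 CPM against 10.8 CPM in the leading NK or ILC1-like cells. It was also true of Ccr8 in the old library, at 8.60 CPM against 3.26 CPM in the leading CD4 T-like cells. With 1 more marker per class B-like cells led for Ccr6 and PT-like cells for Ccr10 in the young library, where ILC2-like cells led for Ccr10 without the top cell. B-like cells led for Cxcr5 in the old library when per-cell CPM was averaged.

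Neutrophil-like cells led for Ccr1, Cxcr2 and Cxcr4. Ccr1 levels were 1040.2 CPM (944 to 1144) young and 1135 CPM (1059 to 1215) old, and Cxcr2, the receptor of Cxcl1 and Cxcl2, at 979 CPM (886 to 1080) and 868 CPM (801 to 938). Neither neutrophil receptor differed between the libraries beyond its counting interval. Cxcr4 was at 415 and 386 CPM in neutrophil-like cells and stood above 150 CPM in B-like and gamma-delta T-like cells of both libraries. Monocyte-like cells led for Ccr2 (ENSMUSG00000049103, chr9:124101950-124113557), the receptor of Ccl2, at 994 and 746 CPM, and macrophage-like cells for Cx3cr1 at 681 and 397 CPM. Xcr1, which marks cross-presenting dendritic cells, was led by dendritic-like cells in the young library at 388 CPM, in 26 of 37 cells. In the old library 4 of the 5 dendritic-like cells held 53 of its 89 UMIs, too few cells for a leading class. Ccr3, the eosinophil receptor, had 17 and 48 UMIs in all and led only in old macrophage-like cells, with 10 UMIs.

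Ccr9 and Cxcr6 are neighbours on chromosome 9 (Ccr9, ENSMUSG00000029530, chr9:123678439-123784330; Cxcr6, ENSMUSG00000048521, chr9:123806475-123811760), and both were prominent in ILC2-like cells. Ccr9, the gut-homing receptor, was led by plasmacytoid dendritic-like cells at 948 CPM (875 to 1026) and 1052 CPM (969 to 1141), with ILC2-like cells second at 166 CPM (157 to 175) and 354 CPM (327 to 382). Cxcr6, the receptor of Cxcl16, was at 514 CPM (499 to 530) and 450.0 CPM (420 to 481) in young and old ILC2-like cells, in 1178 of 1472 and 247 of 336 cells. Most ILC2-like cells with Ccr9 also held Cxcr6: 356 of 464 young and 128 of 177 old cells. Seen from Cxcr6, 30.2% of young and 51.8% of old Cxcr6-bearing ILC2-like cells held Ccr9. Cxcr6 was led by gamma-delta T-like cells in the young library, at 700 CPM (603 to 810), and by ILC2-like cells in the old one. CD8 T-like cells held Cxcr6 at 258 and 315 CPM.

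Regulatory T-like cells led for Cxcr3, the receptor of Cxcl9 and Cxcl10, at 165 CPM (113 to 233) and 252 CPM (216 to 292). In the young library the interval of CD8 T-like cells, 136 CPM (113 to 162), overlapped that of regulatory T-like cells, and in the old library CD4 T-like cells were next at 177 CPM (167 to 188). B-like cells led for Ccr7, the lymph node homing receptor, at 849 and 395 CPM. Cxcr5, the follicle-homing receptor, was at 85.4 CPM (70.8 to 102) and 77.0 CPM (62.1 to 94.5) in B-like cells, and in the old library coreceptor-negative T-like cells reached 83.8 CPM (77.0 to 91.0), an interval that overlaps that of B-like cells. Ccr6, the receptor of Ccl20, was at 107 CPM in 45 young gamma-delta T-like cells from 28 UMIs and at 120 CPM in old B-like cells from 143 UMIs. Ccr10 was found in 25 of 55 old plasma-like cells at 57.9 CPM (47.7 to 69.6). Ccr4 and Ccr8, receptors of type 2 lymphocytes and regulatory T cells, were low in all classes: ILC2-like cells led in the young library with 10.1 and 5.74 CPM, and young regulatory T-like cells had 6 UMIs of Ccr4.

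**Figure D2:**
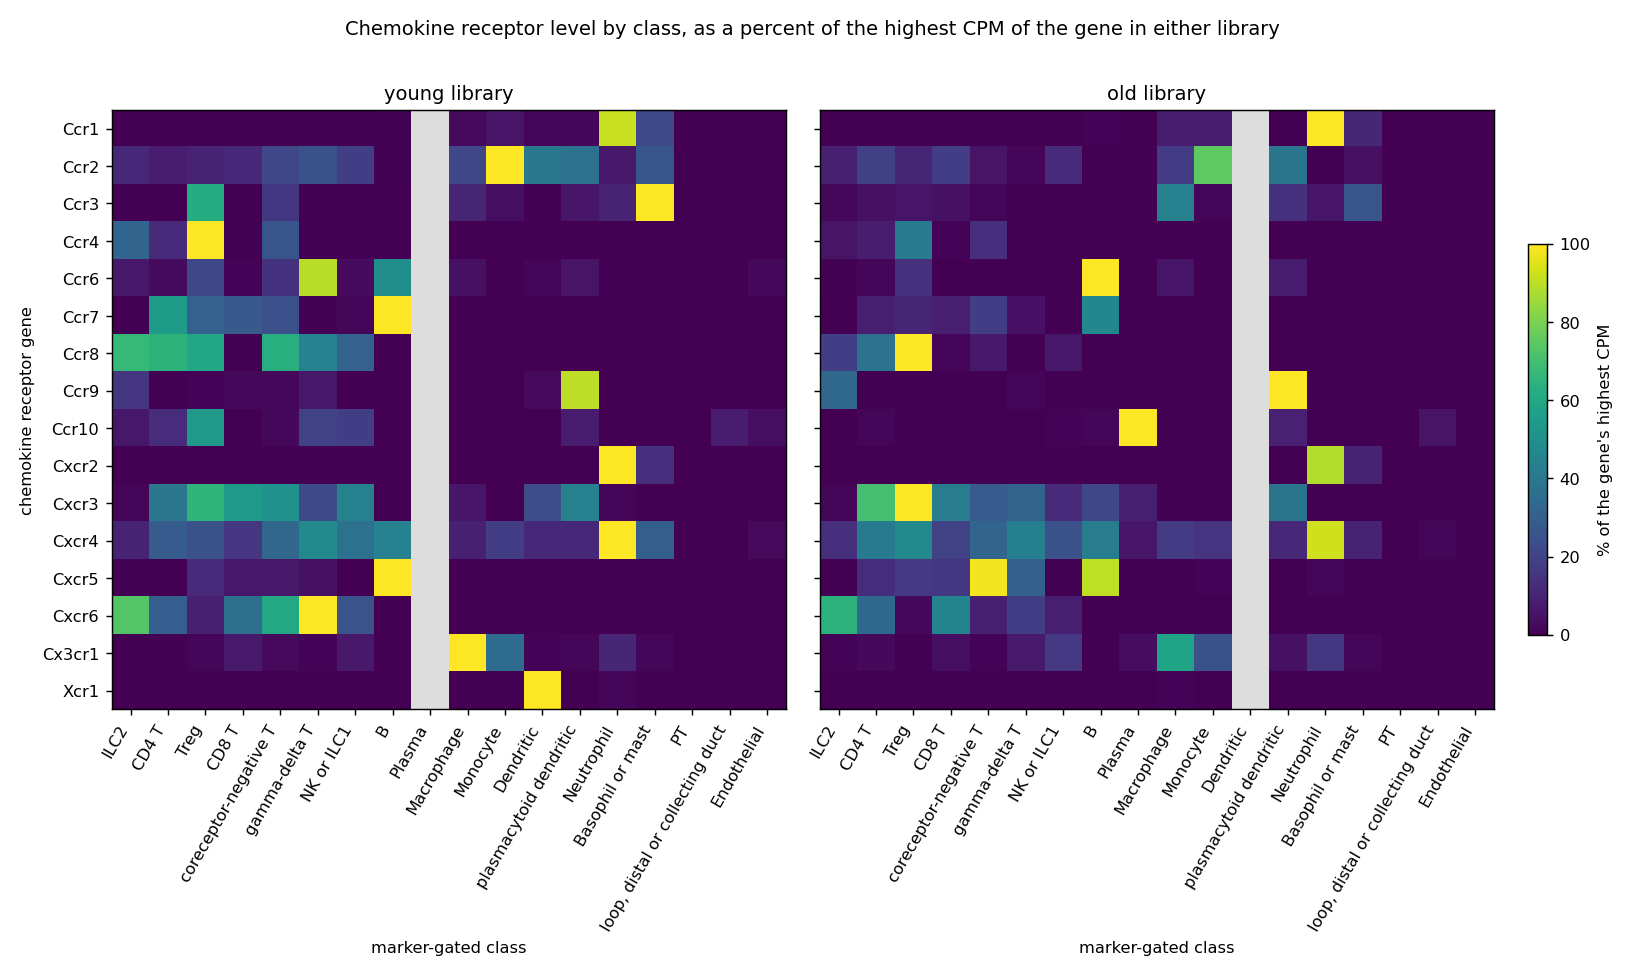
Receptor levels by class in the young (left) and old (right) library; rows are genes, columns are classes, colour is the CPM as a percentage of the highest CPM of that gene in either library, and grey marks classes of fewer than 10 cells. Brighter colours are higher levels. Ccr1, Cxcr2 and Cxcr4 are brightest in neutrophil-like, Ccr2 in monocyte-like, Cx3cr1 in macrophage-like and Ccr9 in plasmacytoid dendritic-like cells. The row of Ccr3 rests on few UMIs.

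The third question was how each class differed between old and young mice. A gene was compared in a class when the class held at least 50 of its UMIs in both libraries summed, and it was called higher or lower in the old library when the CPM differed by 2-fold or more and the counting interval of the ratio excluded equality. Of 164 pairs of gene and class compared, covering 33 of the 39 genes in 16 classes, 44 were higher, 35 were lower and 85 were neither. Of all genes compared in the same way, 0.83% to 13.4% were higher and 1.26% to 9.66% lower, depending on the class. The share for each class is given in brackets below. Ccl17, Ccl22, Cxcl13, Ccr3, Ccr10 and Xcr1 could not be compared in any class. In 32 of the 79 called pairs, 5 cells held 50% or more of the UMIs in the library with the higher level. Of 38 called pairs with 50 UMIs among both Y-linked and Xist-bearing cells, 28 were called the same way in each.

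**Figure D3:**
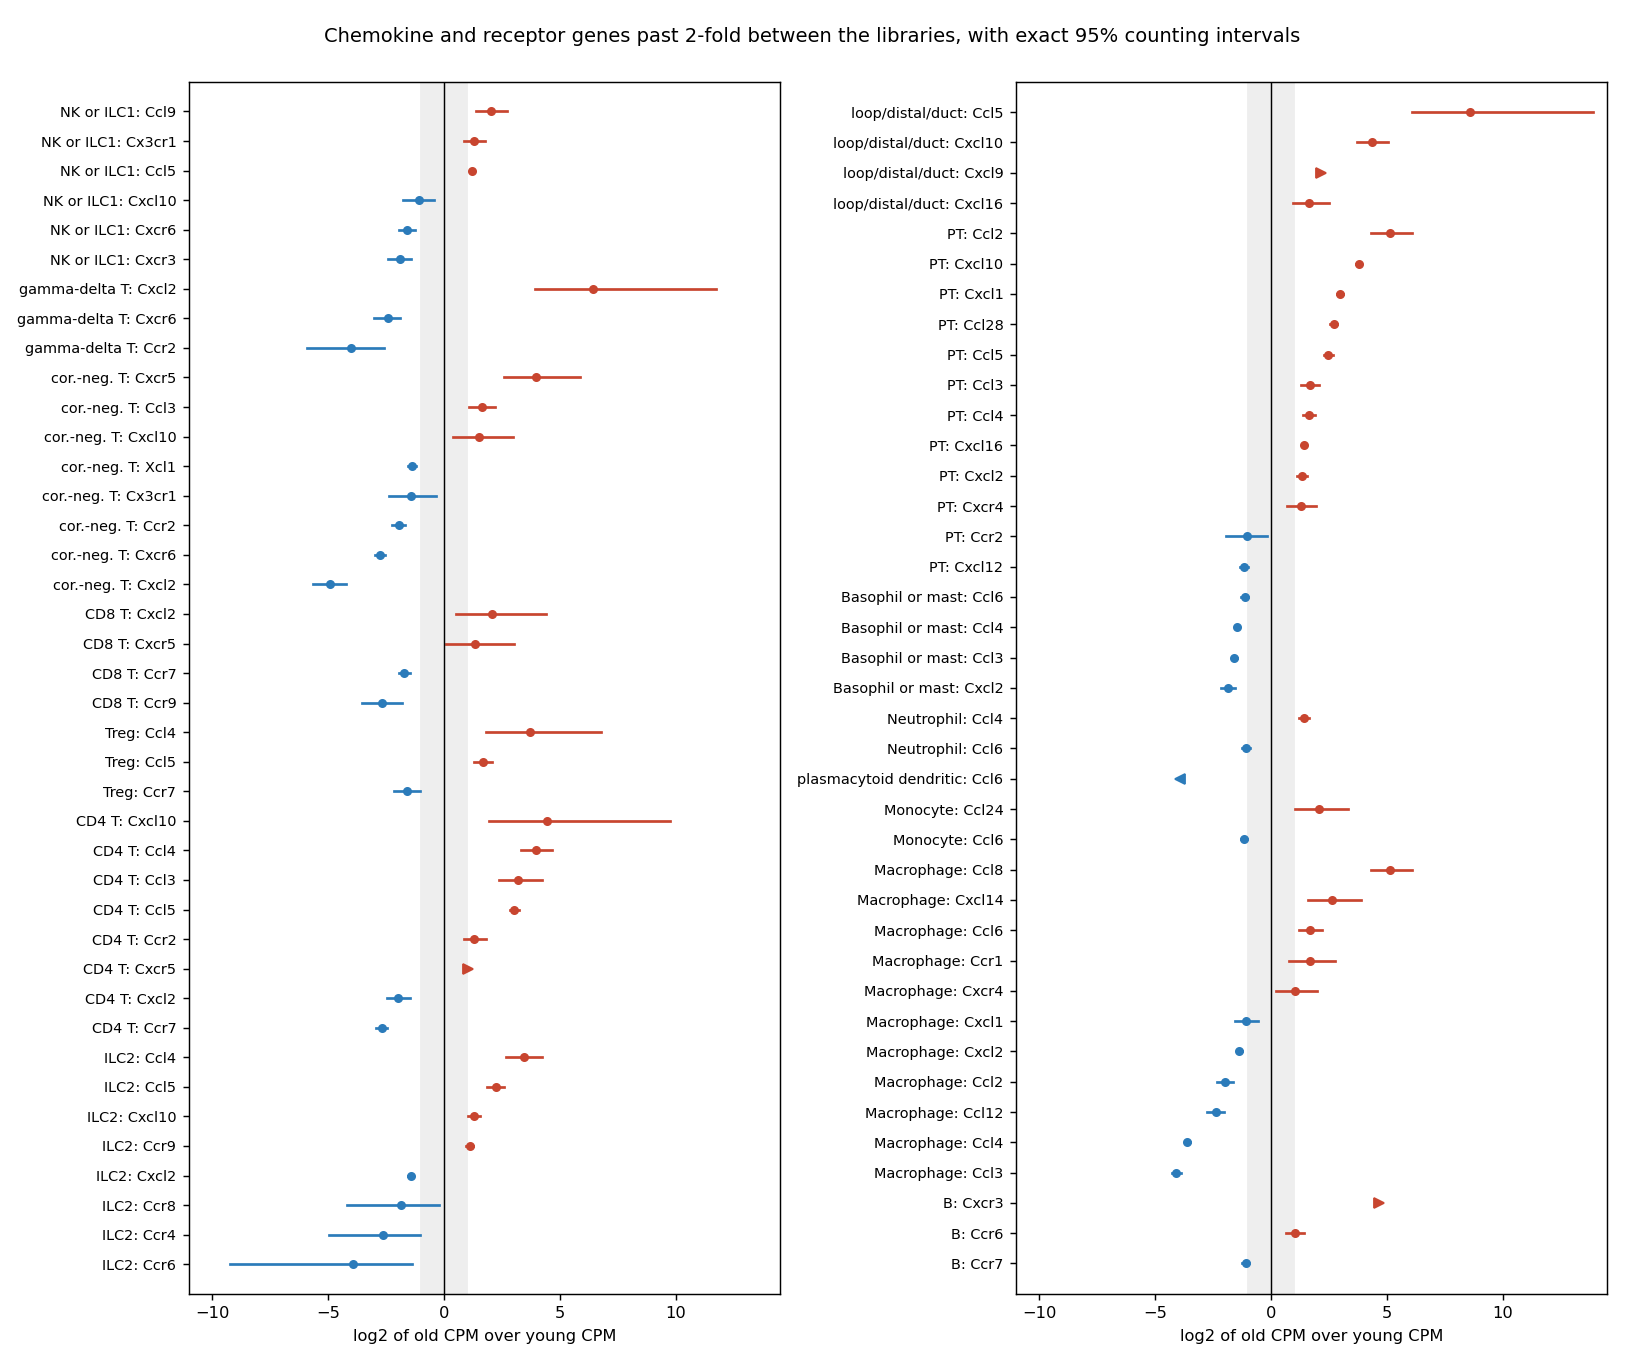
The 79 pairs of gene and class called higher or lower, as log2 of old over young CPM, with exact 95% intervals for counting error; triangles mark a bound where 1 library had no UMI, and the grey band spans less than 2-fold. Points to the right are higher in the old library, and the PT-like class has most of its points there while macrophage-like and basophil or mast-like ligands lie largely to the left.

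PT-like cells, the reabsorptive epithelium of the nephron, had more ligand RNA in the old library: 10 of 18 genes compared were higher (all genes of the class: 4.0% of 13209) and 2 were lower (2.88%). Cxcl10 stood at 6.36 CPM young and 86.8 CPM old, 13.6-fold higher, with a log2 ratio of 3.77 (3.66 to 3.89), and was found in 164 of 5822 and 397 of 3277 cells. Cxcl1 was 7.81-fold higher (6.63 and 51.8 CPM), Ccl28 6.45-fold (4.45 and 28.7 CPM) and Cxcl16 2.63-fold (52.8 and 139 CPM). Cxcl16 was the most evenly spread, in 2655 young and 2477 old PT-like cells, with 5 cells holding only 1.40% of its old UMIs. All 4 were higher in both Y-linked and Xist-bearing cells, by log2 ratios of 3.59 and 4.67 for Cxcl10, 3.08 and 2.02 for Cxcl1, 2.68 and 1.46 for Ccl28 and 1.38 and 1.30 for Cxcl16. Cxcl12 was lower, at 10.7 CPM young and 4.74 CPM old, a log2 ratio of -1.18, also in Y-linked (-1.38) and Xist-bearing cells (-0.90). Cx3cl1, at 4.11 and 5.53 CPM, stayed under 2-fold.

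Other PT-like differences were small in level or rested on few cells. Ccl2 was at 0.108 and 3.75 CPM, and 163 of its 240 old UMIs lay in 1 cell. Cxcl2 was at 2.86 and 7.11 CPM, with 149 of 455 old UMIs in 1 cell, and without the top cell of each library its difference fell under 2-fold. The leukocyte genes Ccl3, Ccl4, Ccl5 and Cxcr4 were higher and Ccr2 lower in old PT-like cells, none of them above 15 CPM. Beside them, the 8 T-cell markers, all detected, summed to 9.52 and 27.6 CPM in young and old PT-like cells. The Ccl5 UMIs per T-marker UMI were 0.274 and 0.523 in PT-like cells. In CD8 T-like cells they were 1.07 and 1.61, and in coreceptor-negative T-like cells 0.278 and 0.258. NK or ILC1-like cells held 10676 young and 38604 old Ccl5 UMIs beside 1332 and 2202 T-marker UMIs. The 7 monocyte markers, also all detected, summed to 12.3 and 26.0 CPM. The part of such free RNA in these 5 differences was not tested.

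PT-like cells were then divided by segment and by injury markers. With an injury marker (Havcr1, Lcn2, Krt20 or Sox9; 239 young and 190 old cells), Cxcl1 was at 6.70 CPM (5.05 to 8.72) young and 230.3 CPM (217 to 244) old, and Cxcl10 at 5.97 CPM (4.42 to 7.89) and 198 CPM (185 to 210.3). Without one, Cxcl1 was at 6.63 and 36.8 CPM and Cxcl10 at 6.39 and 77.5 CPM. The marked and unmarked cells thus had like levels in the young library, and in the old library the marked cells stood higher for both ligands. Cxcl16 in marked cells was at 21.8 and 204 CPM and in unmarked cells at 55.3 and 133 CPM. Ccl28 followed the segment: in cells with S3 markers (465 young, 101 old) it was at 16.6 CPM (14.7 to 18.8) and 121 CPM (110 to 134), and in the other PT-like cells at 2.48 and 23.8 CPM. Cxcl10 in S3-marked cells was at 3.96 and 14.4 CPM, and 1 old cell held 84.8% of its UMIs there.

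**Figure D4:**
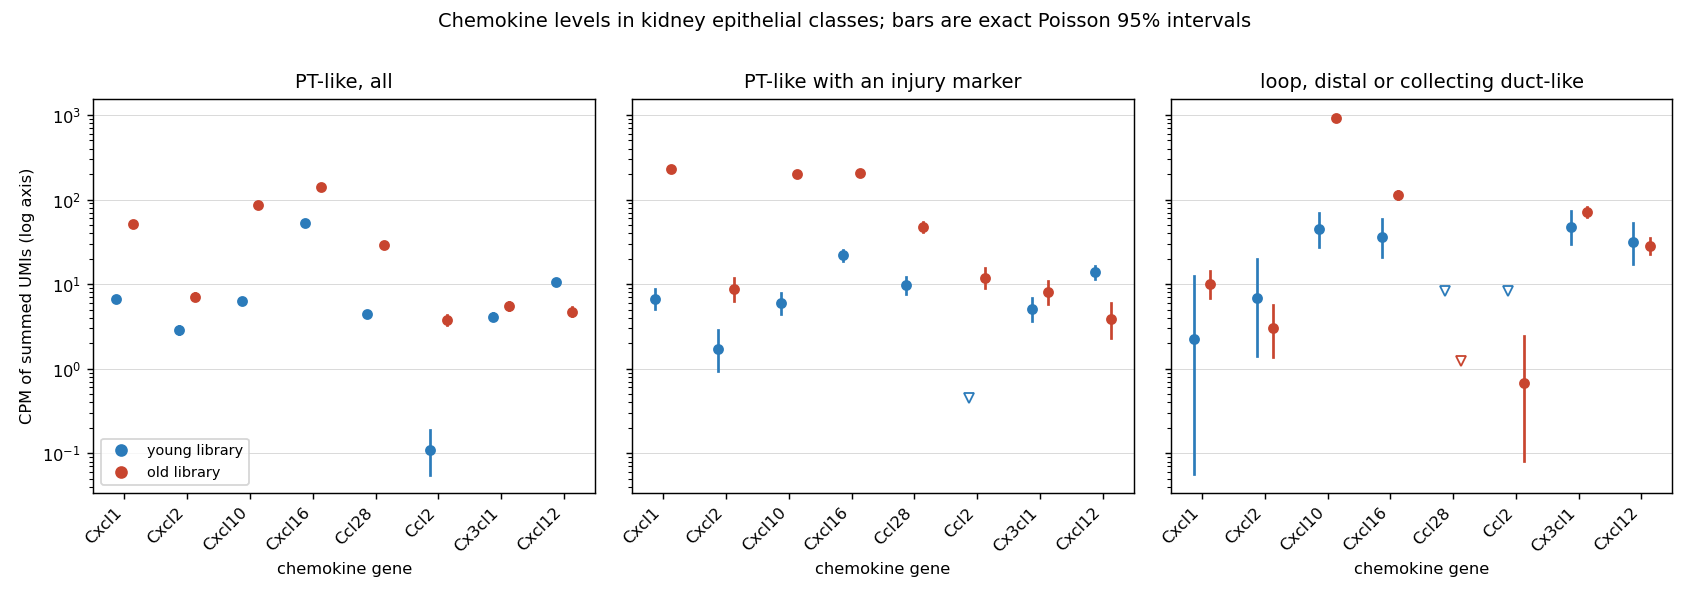
CPM on a log axis of 8 ligands in all PT-like cells, in PT-like cells with an injury marker and in cells of the loop, distal tubule or collecting duct, young and old; points are class levels, lines are exact Poisson 95% intervals, and open triangles are upper limits where no UMI was found. Old points lie above young points for Cxcl1, Cxcl10, Cxcl16 and Ccl28 in PT-like cells, and Cxcl12 lies lower.

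In cells of the loop, distal tubule or collecting duct (37 young, 139 old), 4 of 6 genes compared were higher (5.95% of all genes) and none was lower (2.49%). Cxcl10 was at 45.3 CPM (27.6 to 69.9) young and 913 CPM (879 to 948) old, in 5 and 57 cells, with 72.5% of the old UMIs in 5 cells. Cxcl16 was at 36.2 and 113 CPM, in 8 and 80 cells. Cxcl9 had no young UMI and 91 old UMIs, 54 of them in 1 cell, a log2 ratio of at least 2.17 against 3 young UMIs. Ccl5 had 1 young and 2542 old UMIs, of which 98.7% lay in 5 cells. Its log2 ratio was 8.55, with a counting interval of 6.07 to 13.86. Those 5 cells held 1 UMI of the 8 T-cell markers, and the class as a whole held 45.4 Ccl5 UMIs per T-marker UMI. Old CD8 T-like cells had 1.61 and old coreceptor-negative T-like cells 0.258. Old NK or ILC1-like cells held 38604 Ccl5 UMIs beside 2202 T-marker UMIs.

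ILC2-like cells, the group 2 innate lymphoid cells that the study centred on, had 4 of 13 genes higher (2.15%) and 4 lower (4.1%). Ccr9 was at 166 and 354 CPM, a log2 ratio of 1.09 (0.96 to 1.23), with 1.07 in Y-linked and 1.08 in Xist-bearing cells. Cxcl2 was at 1186 and 435 CPM (log2 ratio -1.45, -1.55 to -1.34), held by 669 of 1472 and 98 of 336 cells. Thus the gut-homing receptor was higher and the neutrophil attractant lower in old ILC2-like cells, and in both Y-linked and Xist-bearing cells. The lymphocyte receptors Ccr4, Ccr6 and Ccr8 were lower, with Ccr4 at 10.1 and 1.60 CPM, Ccr6 at 8.14 and 0.534 CPM and Ccr8 at 5.74 and 1.60 CPM, from 84, 68 and 48 young UMIs and 3, 1 and 3 old UMIs. With so few old UMIs the log2 ratios had wide intervals, -4.96 to -1.05 for Ccr4, -9.25 to -1.40 for Ccr6 and -4.17 to -0.21 for Ccr8. Ccl4, Ccl5 and Cxcl10 were higher, but 86.8% of old Ccl4 UMIs lay in 5 cells and 91 of 202 old Cxcl10 UMIs in 1 cell, and without the top cell of each library Cxcl10 fell under 2-fold. Beside them the 7 monocyte markers summed to 6.22 and 137 CPM in young and old ILC2-like cells, and the 6 macrophage markers to 1.20 and 12.3 CPM, with 3 of the 6 at 0 in young cells; their part in the ligand values was not tested. Cxcr6 (log2 ratio -0.19), Ccr2 (-0.34), Cxcr4 (0.43) and Cxcl1 (-0.08) stayed under 2-fold; for Ccr2 the ratio was -1.05 in Y-linked and 0.49 in Xist-bearing cells.

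In CD4 T-like cells 6 of 14 genes were higher (5.27%) and 2 lower (3.26%). Ccl5 was at 491 CPM (14 of 102 cells) young and 4007 CPM (471 of 1047 cells) old, a log2 ratio of 3.03 (2.86 to 3.21), and Ccl4 at 37.0 and 570.5 CPM and Ccl3 at 20.4 and 188 CPM went with it. Ccr2 was at 75.9 and 187 CPM. Cxcr5 had no young UMI and 69 old UMIs in 57 cells, a log2 ratio of at least 1.02 against 3 young UMIs. Ccr7 was lower, at 465 and 71.8 CPM, a log2 ratio of -2.69 (-2.92 to -2.47), with -2.29 in Y-linked and -3.39 in Xist-bearing cells. The 7 NK or ILC1 markers summed to 18.5 CPM in young CD4 T-like cells, with 4 of the 7 at 0, and to 183 CPM in old ones, with 2 at 0; their part in the Ccl3, Ccl4 and Ccl5 values was not tested. Cxcl10 was higher, from 1 young and 245 old UMIs (log2 ratio 4.43, 1.94 to 9.74), and Cxcl2 lower, from 45 young UMIs of which 34 lay in 1 cell. In regulatory T-like cells (30 and 110), Ccl4 and Ccl5 were higher (2 of 6, against 5.06%) and Ccr7 was lower (1 of 6, against 2.33%), at 269 and 87.4 CPM. Beside the ligands, the NK or ILC1 markers summed to 0 and 63.0 CPM in regulatory T-like cells (7 and 6 of 7 at 0) and the monocyte markers to 20.7 and 158 CPM (5 and 3 of 7 at 0), and their part was not tested. Ccl4 had only 2 young UMIs there and a log2 ratio of 3.69 (1.80 to 6.76).

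CD8 T-like cells differed less: 2 of 14 genes were higher (4.24%) and 2 lower (2.14%). Ccr7 was lower, at 236 and 71.8 CPM, and Ccr9 at 22.9 and 3.57 CPM. Ccl5 (7816 and 13016 CPM, log2 ratio 0.74), Ccl4 (0.40) and Ccl3 (0.63) were above the young level without reaching 2-fold. The NK or ILC1 markers summed to 69.7 and 287 CPM beside them, and their part was not tested. Cxcr5 was at 5.45 and 13.9 CPM, and neither Y-linked (log2 ratio 0.64) nor Xist-bearing cells (0.55) reached 2-fold alone. Cxcl2 was higher from 3 young and 112 old UMIs (log2 ratio 2.08, 0.49 to 4.38), 70 of them in 1 cell, and was below the young level in Y-linked (-0.40) and in Xist-bearing cells (-1.78).

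Coreceptor-negative T cells are known to accumulate in mice without functional Fas. The T-like class was set by the absence of Cd4, Cd8a and Cd8b1 UMIs, so cells with undetected coreceptor RNA can lie in it. In the old library its median was 3969 UMIs, against 5215 in CD4 T-like and 5999 in CD8 T-like cells. The part of such cells in the differences was not tested. This class had 3 of 13 genes higher (9.92%) and 5 lower (6.12%). Cxcr5 was at 5.38 CPM (4 of 152 cells) young and 83.8 CPM (395 of 1477 cells) old, a log2 ratio of 3.96 (2.60 to 5.84), with 3.86 in Y-linked and 3.87 in Xist-bearing cells. Cxcr6 was lower, at 421 and 61.5 CPM (log2 ratio -2.78, -2.99 to -2.56), and Ccr2 at 211 and 54.0 CPM (-1.97, -2.24 to -1.69). Both tissue-homing receptors were lower in Y-linked and in Xist-bearing cells. Beside them the 6 ILC2 markers summed to 963 and 248 CPM in young and old cells of this class and the 7 NK or ILC1 markers to 145 and 598 CPM, whose part was not tested. Xcl1 was lower, at 442 and 170 CPM, though 723 of its 1153 old UMIs lay in 1 cell and without the top cell of each library the log2 ratio was -2.60. Cxcl2 was lower from 77 young UMIs, 98.7% of them in 5 cells, and Cx3cr1 from 12 young and 41 old UMIs. Ccl3, at 39.0 and 120 CPM, and Cxcl10, at 8.08 and 23.1 CPM, were higher.

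NK or ILC1-like cells had 3 of 11 genes higher (1.56%) and 3 lower (3.76%). Ccl5 was 2.30-fold higher, with log2 ratios of 1.81 in Y-linked and 0.51 in Xist-bearing cells, the latter under 2-fold. Cx3cr1, a receptor of circulating cytotoxic cells, was at 46.6 and 114 CPM, and Ccl9 at 20.6 and 83.7 CPM. Cxcr3, at 111 and 29.6 CPM, and Cxcr6, at 179 and 58.7 CPM, were lower, with log2 ratios of -2.65 and -2.58 in Y-linked and of -0.64 and -0.84 in Xist-bearing cells. Cxcl10 was lower from 46 and 34 UMIs, with 25 of the young ones in 1 cell. Beside Cxcr6, the 6 ILC2 markers summed to 693 and 292 CPM in young and old NK or ILC1-like cells; their part was not tested. Gamma-delta T-like cells (45 and 36) had lower Cxcr6, at 700 and 129 CPM, and lower Ccr2, at 245 and 15.2 CPM (2 of 8, against 3.84%). Their 1 gene called higher (3.96%) was Cxcl2, with 85 of 86 old UMIs in 1 cell and 1 young UMI (log2 ratio 6.42, 3.90 to 11.74).

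**Figure D5:**
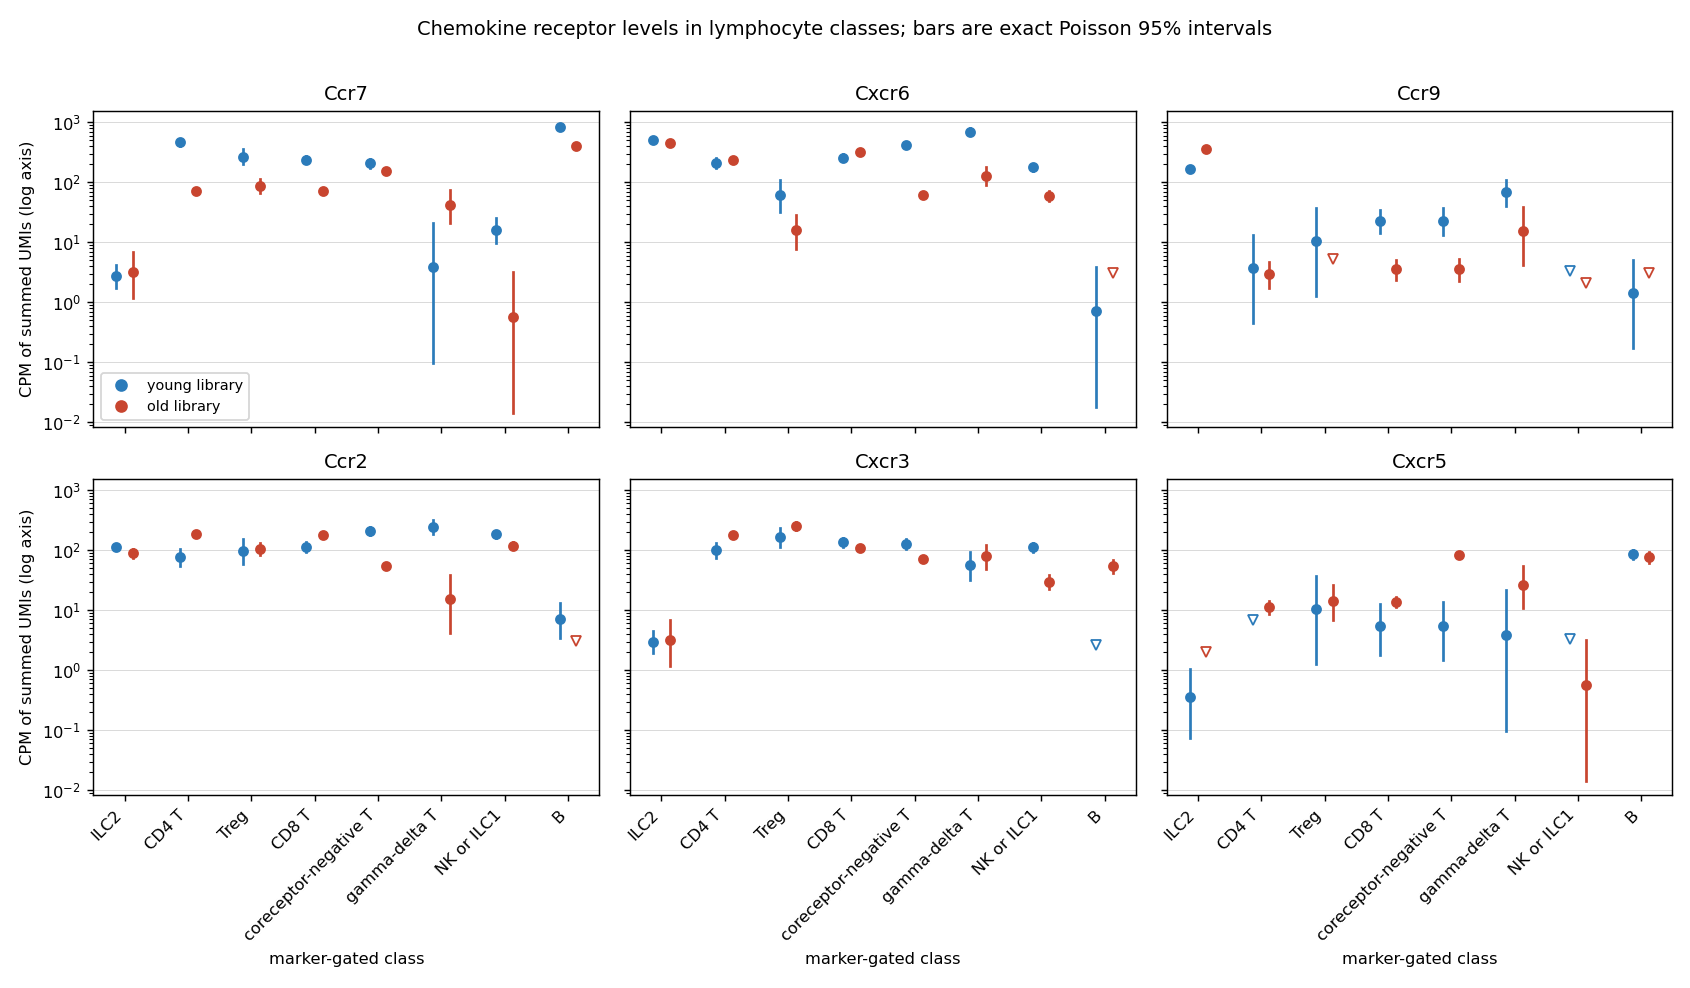
CPM of 6 receptors in 8 lymphocyte classes, young and old, with exact Poisson 95% intervals. Ccr7 lies lower in old than in young CD4 T-like, CD8 T-like and B-like cells, Ccr9 stands out in ILC2-like cells and lies higher in the old library there, and Cxcr5 is near 0 in young coreceptor-negative T-like cells and at 83.8 CPM in old ones.

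B-like cells had 2 of 5 genes higher (3.24%) and 1 lower (4.41%). Ccr7 was at 849 CPM (802 to 899) and 395 CPM (360.4 to 433), lower in Y-linked (log2 ratio -1.10) and in Xist-bearing cells (-1.01). Ccr6 was at 59.3 and 120 CPM. Cxcr3 had no UMI in 345 young B-like cells and 64 in 31 of 161 old ones, a log2 ratio of at least 4.66 against 3 young UMIs. Cxcr5 (-0.15) and Cxcr4 (-0.07) stayed under 2-fold, so the follicle receptor was held at both ages.

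Macrophage-like cells had 5 of 18 genes higher (10.4%) and 6 lower (9.66%). The lower ones were inflammatory ligands. Ccl3 was at 4647 CPM (64 of 71 cells) and 273 CPM (28 of 43 cells), a log2 ratio of -4.09 (-4.29 to -3.90), and Ccl4 at 9347 and 764 CPM, a log2 ratio of -3.61 (-3.73 to -3.50). Both were lower in Y-linked (-3.94 and -4.63) and in Xist-bearing cells (-3.48 and -2.60). Ccl2 (456 and 115 CPM), Ccl12 (495 and 94.0 CPM), Cxcl2 (3845 and 1484 CPM) and Cxcl1 (176 and 83.0 CPM) were lower as well. Ccl8, Cxcl14, Ccl6, Ccr1 and Cxcr4 were higher, with Ccl6 at 98.4 and 315 CPM and Ccr1 at 28.5 and 90.7 CPM; Cxcr4 was below the young level in Xist-bearing cells (-0.51). The 7 monocyte markers summed to 4119 and 22420.3 CPM in young and old macrophage-like cells, and the 6 macrophage markers to 14030.3 and 11351 CPM, so the class held more monocyte-marker RNA in the old library; the part of this in the differences was not tested. Share-of-class values here rest on 71 and 43 cells.

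Among the other myeloid classes, most genes compared were lower in old basophil or mast-like cells, and monocyte-like and neutrophil-like cells had 1 call in each direction. In monocyte-like cells Ccl24 was higher (1 of 17, against 2.99%) and Ccl6 lower (1 of 17, against 1.9%), at 720.5 and 319 CPM. Neutrophil-like cells also had lower Ccl6 (1 of 9, against 3.55%), at 1477 and 700 CPM, and higher Ccl4 (1 of 9, against 5.0%), at 552 CPM (45 of 135 cells) and 1474 CPM (58 of 137 cells). Basophil or mast-like cells had 4 of 5 genes lower (8.39%), namely Ccl3, Ccl4, Ccl6 and Cxcl2, and none higher (13.4%), with 214 of 281 young Cxcl2 UMIs in 1 cell. In plasmacytoid dendritic-like cells 1 of 7 genes was lower (1.26%), Ccl6, with 48 of 53 young UMIs in 1 cell, and none was higher (0.83%). Ccl6 was therefore lower in 4 myeloid or plasmacytoid classes and higher in macrophage-like cells. None of the 39 genes reached 50 UMIs in endothelial-like cells, where 3.07% of all genes compared were higher and 4.29% lower.

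Ligand and receptor levels can be set side by side for known pairs. Cxcl16 was made by macrophage-like and PT-like cells, and its receptor Cxcr6 was held by ILC2-like, T-like and NK or ILC1-like cells in both libraries. Macrophage-like cells held 69.1% of young and 64.2% of old Cxcl9 UMIs, whereas PT-like cells held 40.0% and 51.2% of those of Cxcl10. Such shares follow class size: PT-like cells held 110806097 of 145647185 young and 63974867 of 119218130 old UMIs of all genes. By level, macrophage-like cells led for Cxcl10 in the young library, at 425 CPM. In the old library cells of the loop, distal tubule or collecting duct led at 913 CPM, with macrophage-like cells next at 327 CPM. The receptor Cxcr3 was held by T-like, NK or ILC1-like and plasmacytoid dendritic-like cells and, in the old library, also by B-like cells. Cxcl1 and Cxcl2 stood beside Cxcr2, which was above 100 CPM only in neutrophil-like cells and, in the young library, basophil or mast-like cells. Xcl1 levels were highest in NK or ILC1-like and gamma-delta T-like cells, and Xcr1 was held by dendritic-like cells. By UMIs, NK or ILC1-like cells held 51.6% of young and 29.1% of old Xcl1. CD8 T-like cells held 22.7% and coreceptor-negative T-like cells 15.4% of the old Xcl1 UMIs. No contact between these cells was measured.

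Other genes of the chemokine system were taken from lists by symbol. Of 14 further ligands, 13 were in the matrices, and 14 pairs of gene and class were compared, of which 2 were lower and none higher in the old library. The shares of all genes called in each class, given above, apply to these lists too: 4.1% lower in ILC2-like and 9.66% lower in macrophage-like cells for these calls. Cxcl3, a neutrophil attractant beside Cxcl1 and Cxcl2, was at 19.3 and 2.67 CPM in ILC2-like cells, and Pf4, a platelet and macrophage chemokine, at 287 and 25.1 CPM in macrophage-like cells. Ccl1, a Ccr8 ligand, was at 46.8 and 47.0 CPM in ILC2-like cells, found in 151 of 1472 and 33 of 336 of them. Of 7 further and atypical receptors, 14 pairs were compared, with 2 higher and 1 lower. For these calls the shares of all genes were 5.06% higher in regulatory T-like cells, 4.0% higher in PT-like cells and 6.12% lower in coreceptor-negative T-like cells. Ccrl2, which presents chemerin, was higher in regulatory T-like (25.8 and 77.4 CPM) and PT-like cells (0.740 and 1.49 CPM) and lower in coreceptor-negative T-like cells (60.6 and 11.04 CPM). Ackr3, the scavenging receptor of Cxcl12, was at 63.1 CPM (61.7 to 64.6) and 62.0 CPM (60.1 to 64.0) in PT-like cells, where Cxcl12 itself was lower. For 12 signalling genes, 157 pairs were compared, with 5 higher and 6 lower. Over the classes, 0.83% to 13.4% of all genes were higher and 1.26% to 9.66% lower, and these counts lie within those shares. In coreceptor-negative T-like cells 2 of 12 signalling genes were higher (9.92% of all genes) and 2 were lower (6.12%). In endothelial-like cells 2 of 6 were lower (4.29%), and the other classes had at most 1 call each. The shares differ widely between classes, so the pooled counts cannot show whether the signalling genes differ from all genes. Rgs2, a brake on G protein signalling, was lower in macrophage-like (1776 and 542 CPM), monocyte-like (1165 and 567 CPM), coreceptor-negative T-like and endothelial-like cells, and Rgs1, a related brake, was higher in B-like (201 and 733 CPM) and neutrophil-like and lower in coreceptor-negative T-like cells. Grk2 and Grk6, kinases that desensitise the receptors, were higher in coreceptor-negative T-like cells, Grk2 was lower in endothelial-like cells, and Pik3cg was higher in CD4 T-like cells.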

How the data were processed

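Droplet-based 3′ single-cell RNA-seq libraries (10x Genomics v3.1) were made from ILC-enriched, live-sorted kidney cells. The deposited matrices hold raw counts of UMIs per gene and barcode, made by the authors with Cell Ranger (version 3 in the submitters' processing notes) against mm10. The 39 genes and all gene lists were chosen with earlier results of these data known.

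As in the study, barcodes under 200 detected genes or over 20% mitochondrial UMIs were removed. A barcode entered a class when it held enough markers of that class (4 of 6 for ILC2, 5 of 8 for T, 2 of 7 for NK or ILC1, 5 of 8 for PT, and likewise for the others) and of no other class; 1734 young and 1198 old barcodes met no class, 495 and 493 met more than 1, and neither set was compared. Scrublet doublets (scanpy 1.11.5; 332 young, 270 old) were kept. UMIs were summed per class and library; levels have exact Poisson and ratios exact binomial intervals, with a floor of 3 UMIs at 0. UMIs of 1 cell are not independent, so intervals cover counting error only. Shares followed thinning to 1000 UMIs (seed 7). A leading class needed 10 cells and 10 UMIs, and levels were given for genes whose leading class held 50 UMIs or that met the 2-fold rule between libraries; the others were given by counts of UMIs or cells. Python 3.11.15, numpy 2.4.6, scipy 1.17.1 and pandas 2.3.3 were used, and the interval code was tested on simulated counts. Alternatives were 1 more marker per class, no doublets, a limit of 10% mitochondrial UMIs, a minimum of 500 genes, totals without the most abundant genes, per-cell CPM averaged over cells, leaving out the top cell, subtraction of free RNA, Y-linked or Xist-bearing cells alone, and other thinning depths.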

Additional observations from a re-analysis of the deposited data

Results flagged for a closer look

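Ccr2, Cxcl9 and Cxcr6 were each flagged in a class where the direction differed between Y-linked and Xist-bearing cells. Other calls whose direction turned, among them Ccr2 in PT-like cells and Cxcr4 in macrophage-like cells, are given in the next section. Ccr2 in ILC2-like cells had a log2 ratio of old over young of -1.05 in cells with Y-linked UMIs and 0.49 in cells with Xist UMIs. Cxcl9 in monocyte-like cells had -1.27 and 4.45, and Cxcr6 in PT-like cells -1.02 and 3.04. The difference was not tested in any of the 3, since each age has 1 pooled library, within which cells were split by their Y-linked and Xist UMIs. Outside every class, Ccl17 stood at 39.1 CPM in the young library, with 230 of 231 UMIs in 1 barcode.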

How the results depend on the processing

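No paired analysis was possible because the labels give 1 library per age, and for the same reason no replicate could be left out. The leading class was the same for 61 to 68 of 68 genes and libraries over 8 alternatives. Of 79 calls between old and young, 65 to 79 kept their call when cells were gated, filtered, averaged or left out differently or when Y-linked cells alone were used. Among Xist-bearing cells 51 of the 66 that could be computed kept it. Calls whose direction turned were Cxcl2 in CD8 T-like cells, with log2 ratios of -0.40 in Y-linked and -1.78 in Xist-bearing cells, Cxcr4 in macrophage-like cells, with -0.51 in Xist-bearing cells, and Ccr2 in PT-like cells, with 0.041 in Xist-bearing cells; the cause was not tested. Leading shares lay above the class that should lack the gene in 48, 52 and 55 of 55 cases after thinning to 500 UMIs, to 2000 UMIs and without thinning. Classes of under 50 cells limit what the depth can show.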

Other observations

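T-like cells with cycling markers (15 young, 116 old) held chemokine genes at other levels than the remaining T-like cells. In the old library Ccl5 was at 3206 CPM (3127 to 3287) in cycling and 6894 CPM (6858 to 6929) in noncycling T-like cells, and Ccr7 at 34.3 CPM (26.5 to 43.6) and 102 CPM (97.4 to 106). Cxcr6, at 185 CPM (166 to 205) and 208 CPM (202 to 215), and Cxcr3, at 115 CPM (100.1 to 131) and 123 CPM (118 to 127), had intervals that overlapped. Xcl1 was at 567 and 150 CPM, with 66.2% of the UMIs of cycling cells in 1 cell.

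Barcodes outside every class held much Cxcl2 in the old library, at 1051 CPM in 197 of 1198 barcodes, and 860 Ccl2 UMIs, of which 827 lay in 1 barcode. The 30 old barcodes among them with 3 or more uroplakin UMIs, markers of urothelium, held Cxcl16 at 86.2 CPM (65.6 to 111), from 59 UMIs in 21 barcodes.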
